A study of Mus musculus with 6 samples.

Results

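T and NK lymphocytes made up 190 of the 44112 filtered cells (0.431%) that were captured together with brain microvessels of 12-month-old mice. A cell was taken as T or NK when it held at least 3 unique molecular identifiers (UMIs, each standing for a captured transcript) of Cd3e, Cd3d, Trbc2 and Nkg7 together, no UMI of the B cell genes Cd79a and Ms4a1, at most 3 UMIs of the endothelial genes Cldn5 and Flt1 and at most 2 UMIs of the microglial genes C1qa and Csf1r. The levels of these 10 genes therefore describe the selection and are no result. Most members had CD3 and T cell receptor transcripts, 18 had NK receptor transcripts and no CD3 transcript, and 5 had neither.

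The 3 WT mice were C57BL/6J and the 3 ArcSwe mice carried TgApp ArcSwe, a transgene with the Arctic and Swedish mutations of the amyloid precursor protein that serves as a model of Alzheimer's disease with amyloid in vessel walls. All 6 were untreated males, and the cerebrum of a single hemisphere was used from each. Microvessel fragments were pulled out with beads against CD31 (Pecam1, an adhesion molecule of endothelium that leukocytes also carry), digested to single cells and counted with droplet-based 3′ single-cell RNA sequencing, 1 library per mouse. Mice were killed by cervical dislocation, and neither perfusion of the brain before isolation nor the promoter of the transgene is given in the sources used here, so that lymphocytes in the blood, attached to vessels or in the tissue cannot be told apart.

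T cells recognise peptides through a receptor of alpha and beta or gamma and delta chains that signals through the CD3 proteins and the kinases Lck and Zap70. CD8 T cells read MHC class I and kill or secrete cytokines, CD4 T cells read MHC class II and help other cells, and NK cells kill without such a receptor and are guided by activating and inhibitory receptors of the Klr families. Naive cells circulate through lymphoid organs with the chemokine receptor Ccr7, while cells that stay in tissue after an immune response lose it and keep chemokine genes such as Ccl5 and Xcl1 ready for transcription.

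The libraries were of unequal size. WT 1, WT 2 and WT 3 held 6204, 5709 and 8166 filtered cells, and ArcSwe 1, ArcSwe 2 and ArcSwe 3 held 8265, 2379 and 13389. The deposited matrices held 26436229 to 59161203 UMIs. ArcSwe 2 was the smallest library, and ArcSwe 3 and WT 3 had the lowest median depths (2922 and 3272 UMIs per filtered cell, against 3958 to 5542 in the others). A T or NK cell had a median of 3777 UMIs (796 to 22005) and 1616 genes, close to endothelial cells of the same libraries (3976 UMIs) and above microglia (2040 UMIs). Ribosomal protein genes took a median of 20.9% to 31.3% of a T or NK cell's UMIs in the 6 mice, against 7.16% to 8.66% over all filtered cells.

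Some members stand apart from the rest. The 5 without a UMI of Cd3e, Cd3d, Cd3g, Trac, Trbc1 or Trbc2 and without NK receptor UMIs entered through 3 to 5 UMIs of Nkg7, a granule gene. A cell of WT 3 with 22005 UMIs and a cell of ArcSwe 3 with 13489 UMIs were led by the neutrophil genes S100a8, S100a9, Camp and Ngp, and S100a8 and S100a9 alone took 31.1% and 27.0% of their UMIs. Another cell of ArcSwe 3 held 239 UMIs of Prss34 and 172 of Mcpt8, proteases of basophils. A cell of WT 2 and a cell of ArcSwe 3 held 38 and 34 UMIs of Plac8, together with 121 and 28 UMIs of the chemokine Ccl4. These 5 cells go against the name T or NK, and values without them are given beside the summed counts of most genes and lists named below. They moved the neutrophil and monocyte list (all 8 genes detected, S100a8 the most abundant) to 56101 CPM (UMIs scaled to a fixed total per mouse) in WT 3 and 26262 CPM in ArcSwe 3, against 179 CPM in WT 1, 627 CPM in WT 2, 269 CPM in ArcSwe 1 and 624 CPM in ArcSwe 2. The same 2 libraries were highest in a neural and glial list (1019.7 and 879 CPM against 166 to 312 CPM, Ttr the most abundant) and an erythroid list (265 and 309 CPM against 9.76 to 57.9 CPM, Hbb-bs the most abundant), whose part in the results was not tested.

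UMIs of other cell types were present within the limits that the selection set. Of 224 filtered cells with 3 or more UMIs of the 4 genes, 34 were left out, 26 of them for endothelial UMIs, 8 for microglial UMIs and 1 for B cell UMIs, and no other doublet caller was run. Among the 190 members, 50 held at least 1 UMI of Cldn5 or Flt1 and 43 at least 1 of C1qa or Csf1r, and 113 held none of the 4. The members free of these UMIs were 33 of 36 in WT 1, 17 of 23 in WT 2, 12 of 27 in WT 3, 29 of 52 in ArcSwe 1, 12 of 17 in ArcSwe 2 and 10 of 35 in ArcSwe 3, with the lowest shares in the same shallow libraries. The immunoglobulin gene Iglc2, the mural genes Pdgfrb and Abcc9 and the platelet genes Pf4 and Ppbp were at 0 UMIs in all members. Across the libraries 283 barcode sequences occurred more than once, and 7 members had one (3 in WT 1, 3 in WT 2 and 1 in ArcSwe 2). The selection has a soft edge: 15 members held exactly 3 UMIs of the 4 genes, of which 7 also had Cd3g and 11 had Skap1, and 21 cells just outside held 2 UMIs, of which 8 had Cd3g and 14 had Skap1.

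T and NK cells were under 1% of the filtered cells in every mouse. WT 1 had 36 cells, 0.580% of its filtered cells with a 95% exact binomial interval of 0.407% to 0.802%, WT 2 had 23 (0.403%, 0.256% to 0.604%) and WT 3 had 27 (0.331%, 0.218% to 0.481%). ArcSwe 1 had 52 (0.629%, 0.470% to 0.824%), ArcSwe 2 had 17 (0.715%, 0.417% to 1.14%) and ArcSwe 3 had 35 (0.261%, 0.182% to 0.363%). The highest and the lowest share were both in ArcSwe mice, so the genotypes overlapped. The mean was 0.438% ± 0.128 in WT and 0.535% ± 0.241 in ArcSwe (SD, n = 3 mice each), and the difference of 0.0971 percentage points was smaller than the spread between ArcSwe mice (two-sided exact permutation test, p = 0.7, where 0.1 is the smallest p that 3 against 3 mice allow). The intervals cover counting error only. Cells with at least 3 B cell UMIs were more frequent in every mouse (1.98%, 1.65% and 0.588% in WT, 1.28%, 1.09% and 0.672% in ArcSwe), which is a description because both sets rest on chosen thresholds.

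**Figure D1:**
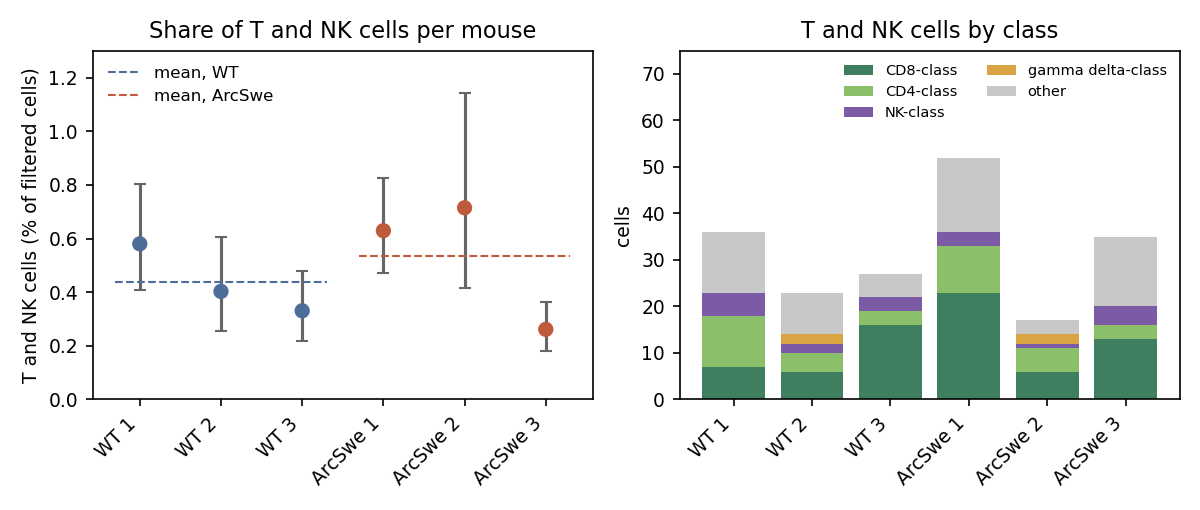
Left, T and NK cells as a percentage of filtered cells in each mouse, with 95% exact binomial intervals as bars and the genotype means as dashed lines. Right, the number of T and NK cells of each class per mouse. ArcSwe 2 and ArcSwe 3, of the same genotype, hold the highest (0.715%) and the lowest (0.261%) share.

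The 20 genes with the highest ratio to all other filtered cells, a description since the cells were chosen on related genes, included the coreceptor genes Cd8a and Cd8b1, the receptor and signalling genes Cd3g, Trbc1, Cd28, Bcl11b, Thy1, Lat and Skap1, and the cytokine and chemokine genes Ifng, Xcl1 and Ccl5. Cd3g, a CD3 chain that the selection did not use, was detected in 150 of 190 cells (78.9%), against 0.0595% of endothelial cells and 0.150% of microglia. These comparison cells were required to hold no UMI of Cd3e, Cd3d, Trbc2 or Nkg7, so their shares of T and NK genes leave out any doublets with lymphocytes. Thinned to 1000 UMIs per cell, which left out 2 members, these shares were 47.9%, 0% and 0.121%. Trac, the constant part of the alpha chain, was found in 122 cells, Cd28, the costimulatory receptor, in 141, and Skap1, an adaptor that couples the receptor to integrins, in 167. Themis, which sets the threshold of receptor signals, was found in 123 cells and Bcl11b, a transcription factor of T cell identity, in 108. Mean levels over the 6 mice ran from 85.6 CPM for Sh2d1a to 2774 CPM for the chemokine Ccl5 among the 20 leading genes, and their ratio to the other filtered cells ran from 330-fold for Skap1 to 1270-fold for Cd8a. All 15 genes of the receptor and signalling list were found in at least 10% of the members. Cd247, the zeta chain, was in 121 cells, Lck in 116, Lat in 95 and Zap70 in 48. Zap70 was also found in 6.90% of endothelial cells, against 0.151% for Lat.

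The beta chain genes Trbc1 and Trbc2 are near-identical and reads can be split between them, so their counts are uncertain one by one. Both were found in 82 cells, Trbc2 alone in 88, Trbc1 alone in 11 and neither in 9.

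Of the cells that could be classed by coreceptor or NK receptor UMIs, most were CD8-class when the mice were pooled. A cell was called CD8-class with at least 1 UMI of Cd8a or Cd8b1 and none of Cd4, CD4-class with at least 1 UMI of Cd4 and none of the CD8 genes, and NK-class with at least 1 UMI of Ncr1, Klrb1c or Klre1 and none of the 3 CD3 genes. These classes are ranges of counts and not sorted types. They held 71 CD8-class cells, 36 CD4-class cells, 18 NK-class cells and 4 gamma delta-class cells (a Trdc UMI, no CD4 or CD8 UMI and not NK-class), and 61 cells fell in none of them. No cell held Cd4 and a CD8 gene together, and 0 of 190 allows a share of cells with both UMIs of up to 1.58% (3 cells of the total, as for every count of 0 here, covering counting error only and not cells whose transcripts went undetected). CD8-class cells rested on a median of 4 UMIs of the class genes and 6 of them on a single UMI. By contrast, 28 of the 36 CD4-class cells rested on a single Cd4 UMI, so the number of CD4 cells is uncertain. They may be undercounted, and part of the 61 may belong there. Both CD8 chains were seen in 49 cells, Cd8b1 without Cd8a in 19 and Cd8a without Cd8b1 in 3.

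CD8-class cells numbered 7, 6 and 16 in WT 1, WT 2 and WT 3 (19.4%, 26.1% and 59.3% of the T and NK cells of the mouse) and 23, 6 and 13 in ArcSwe 1, ArcSwe 2 and ArcSwe 3 (44.2%, 35.3% and 37.1%). The WT mice spanned both ends of the range. In WT 1, CD4-class cells outnumbered CD8-class cells, and unclassed cells outnumbered CD8-class cells in WT 1, WT 2 and ArcSwe 3 (13, 9 and 15 cells). CD4-class cells numbered 11, 4 and 3 in WT (30.6%, 17.4% and 11.1%) and 10, 5 and 3 in ArcSwe (19.2%, 29.4% and 8.57%), in overlapping ranges. NK-class cells numbered 5, 2 and 3 in WT (13.9%, 8.70% and 11.1%) and 3, 1 and 4 in ArcSwe (5.77%, 5.88% and 11.4%), also overlapping. The mean CD8-class share was 34.9% ± 21.3 in WT and 38.9% ± 4.72 in ArcSwe, the CD4-class share 19.7% ± 9.92 and 19.1% ± 10.4, and the NK-class share 11.2% ± 2.60 and 7.69% ± 3.24 (SD, n = 3 mice each). None of the 3 differences passed a two-sided exact permutation test (p = 0.8, p = 0.9 and p = 0.3, each 0.9 after Benjamini-Hochberg adjustment over the 3 classes). The CD8-class and CD4-class differences changed sign when WT 1 was left out (-3.78 and 4.82 percentage points). When at least 2 or 4 UMIs of the selection genes were required, the NK-class difference was -6.21 and -6.18 percentage points (exact permutation p = 0.1 for both, not adjusted over the 3 classes). In the other settings its unadjusted exact permutation p ran from 0.2 to 0.6. Gamma delta-class cells were seen in WT 2 and ArcSwe 2 only, 2 in each, too few to compare.

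Cytotoxic and chemokine genes marked part of the CD8-class cells. Ccl5 was found in 47 of 71, Xcl1 in 35, the cytokine gene Ifng in 34 and Cxcr6, a receptor of tissue-resident lymphocytes, in 26. Klrd1, an inhibitory receptor subunit shared with NK cells, was found in 38, the activating receptor Klrk1 in 27, Ly6c2 in 23 and the granzyme Gzmk in 20, whereas Gzmb was found in 11 and the pore-forming Prf1 in 6. Few endothelial cells and microglia held these genes: Ccl5 was found in 0.380% and 2.86%, Xcl1 in 0.0595% and 0.0641%, Cxcr6 in 0.210% and 0.406% and Klrd1 in 0.0457% and 1.09%. Runx3, which keeps the CD8 lineage, was detected in 43 and Tbx21, a regulator of effector cells, in 28. Tcf7, of naive and memory cells, was found in 34 and the survival receptor Il7r in 48.

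Cd40lg and Tnfrsf4 were found mainly in CD4-class and unclassed cells, whereas Icos, a costimulatory receptor, was also frequent in CD8-class cells. Cd40lg, the ligand through which helper cells activate B cells, was found in 14 of 36 CD4-class cells and 16 of the 61 unclassed cells, and in 0 of 71 CD8-class cells and 0 of 18 NK-class cells, where 0 allows shares of cells with a UMI of up to 4.23% and 16.7%. Tnfrsf4 was found in 9 CD4-class and 7 unclassed cells against 1 CD8-class cell, and Icos in 21 CD4-class, 34 unclassed and 30 CD8-class cells. Of the effector genes named for CD8-class cells, Ccl5 was found in 10 and Ifng in 8 of 36 CD4-class cells. The Ifng share was higher in CD8-class cells in 4 mice and in CD4-class cells in 2. Tnf was found in 16.7% of CD4-class and 14.1% of CD8-class cells, and Ccl3 in 22.2% and 22.5%. These differences were not tested, and the depths were 3510 and 4656 UMIs at the median in CD4- and CD8-class cells. After thinning to 1000 UMIs, Ccl5 was found in 59.4% of CD8-class and 16.7% of CD4-class cells, Cd40lg in 0% and 25%, and Icos in 20.3% and 27.8%. Foxp3, the factor of regulatory T cells, had 1 UMI in 1 member, and Il2ra was found in 7. Ctla4, a checkpoint receptor that activated conventional T cells also carry, was found in 76 members. A test of CD8-class against CD4-class sums needed 3 mice with at least 10 cells of each class, and only ArcSwe 1 met this, so none was made.

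NK-class cells shared adaptor, chemokine and killing genes. Ncr1, the NK receptor NKp46 and a gene that defined the class, was found in 17 of 18 and in no other member. Ccl5, Xcl1, Fcer1g and Il2rb were found in all 18, Klrk1 and Tyrobp in 17, Klrd1 in 15, Tbx21 in 15, Gzmb in 12 and Prf1 in 11. Eomes, a gene of the NK list, was found in only 2 of 18, beside 9 of 71 CD8-class and 4 of 61 unclassed cells. Whether the class holds innate lymphoid cells other than NK cells was not tested. Fcer1g and Tyrobp encode adaptors of activating receptors that microglia also carry (76.8% and 74.0% of microglia, at 2040 UMIs against 3724 UMIs in NK-class cells), while Ncr1 was found in 0.0214% and Xcl1 in 0.0641% of microglia. Trac was found in 1 of the 18 and Trbc1 in 12, and transcripts of an unrearranged beta locus are known from NK cells. Trbc2 was found in 14 and Nkg7 in 18, but without CD3 transcripts a cell could be selected only through these genes. Gzma was confined to 4 members, 3 of them NK-class, but reached 216 UMIs in total. The receptor genes Klra4, Klra7 and Klra8, whose reads can be split between near-identical copies, were found in 2, 4 and 3 members.

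**Figure D2:**
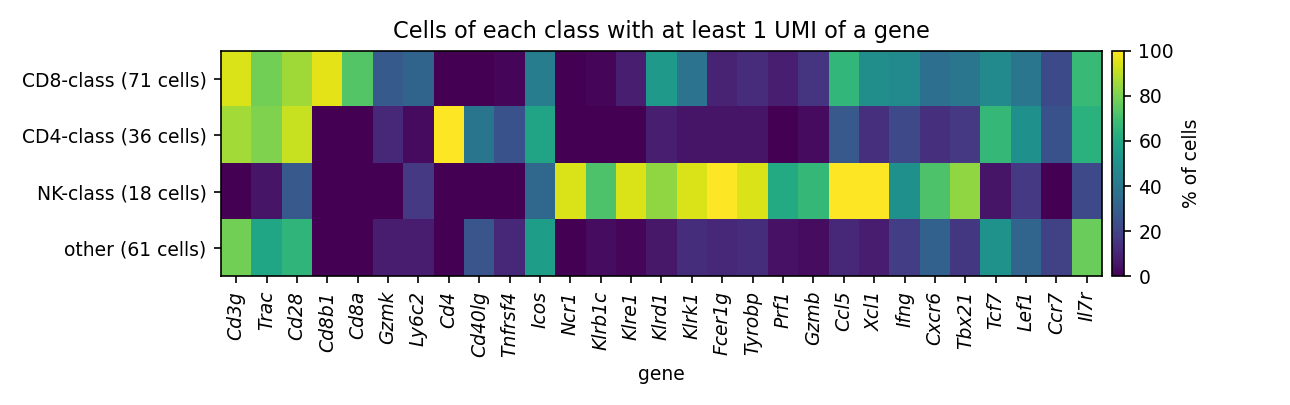
Heat map of the percentage of cells (color, 0 to 100) with at least 1 UMI of each gene (columns), for CD8-class, CD4-class, NK-class and unclassed members pooled over 6 mice. Cd8a, Cd8b1, Cd4, Ncr1, Klrb1c, Klre1 and Cd3g took part in setting the classes, and other columns show Ccl5 and Xcl1 in all 18 NK-class cells and Cd40lg in CD4-class and unclassed cells.

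Across the classes, cells with Ccl5 and cells with the homing receptor Ccr7 were largely separate, a division chosen after the counts were seen. Ccl5 was detected in 85 members and Ccr7 in 37, with 2 in both groups and 70 in neither. Of the 83 cells with Ccl5 alone, 60 had Xcl1, 52 had Ifng, 45 had Cxcr6, 48 had Klrk1 and 60 had Rgs1, a brake on chemokine receptors that was also found in 38.6% of microglia. Of the 35 cells with Ccr7 alone, 1 had Xcl1, 1 had Klrk1 and 3 had Rgs1, and 0 had Ifng or Cxcr6, which allows up to 8.57% of cells with a UMI. Genes of naive and recirculating lymphocytes were frequent in these 35 cells, with the transcription factors Lef1 in 32 and Satb1 in 29, the egress receptor S1pr1 in 23, Tcf7 in 22 and Dapl1 in 10. Of the cells with Ccl5 alone, 14 had Lef1, 32 had Satb1, 14 had S1pr1, 33 had Tcf7 and 1 had Dapl1, and Klf2 was found in 60 of these 83 and in 32 of the 35 cells. The median depths were 4310 UMIs with Ccl5 and 3508 UMIs with Ccr7. Thinned to 1000 UMIs, Xcl1 was found in 42.2% and 0% and Lef1 in 4.82% and 55.9% of the 2 sets. Lef1 and S1pr1 were also found in 86.1% and 75.4% of endothelial cells, so carry-over can add single UMIs, while Ccr7 was found in 0.114% of them. Il7r and Ms4a4b were frequent in both sets (49 of 83 and 23 of 35 cells for Il7r, 80 and 33 for Ms4a4b).

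Cells with Ccl5 were 58.3%, 43.5% and 55.6% of the members in WT 1, WT 2 and WT 3, and 34.6%, 29.4% and 45.7% in ArcSwe 1, ArcSwe 2 and ArcSwe 3. ArcSwe 3 lay above WT 2, so the genotypes overlapped. Cells with Ccr7 were 11.1%, 21.7% and 11.1% in WT and 34.6%, 23.5% and 8.57% in ArcSwe, and here ArcSwe 3 was the lowest and ArcSwe 1 and ArcSwe 2 were the highest. No test was made, because the division was chosen on these cells.

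The start regions of Xcl1, Cxcr6 and Ifng are shown because these genes were detected together with Ccl5. They were taken from RefSeq for the GRCm38.p6 build, 250 bases before to 50 bases after the start, 5′ to 3′ on the gene's strand, and capitals mark matches on either strand to a Runx motif (TGTGGT) or a T-box motif (TCACACC), the families of Runx3 and Tbx21. Of the 5 genes looked up (these 3 and Ccl5 and Ccr7), 3 had an entry.
Xcl1 (chr1:164935473-164935772, minus strand): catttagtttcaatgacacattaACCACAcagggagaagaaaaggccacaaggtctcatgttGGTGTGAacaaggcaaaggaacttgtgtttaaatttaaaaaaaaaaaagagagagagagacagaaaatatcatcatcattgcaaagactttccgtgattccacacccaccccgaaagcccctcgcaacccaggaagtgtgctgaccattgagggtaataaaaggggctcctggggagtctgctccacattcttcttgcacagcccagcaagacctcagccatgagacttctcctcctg
Cxcr6 (chr9:123806227-123806526, plus strand): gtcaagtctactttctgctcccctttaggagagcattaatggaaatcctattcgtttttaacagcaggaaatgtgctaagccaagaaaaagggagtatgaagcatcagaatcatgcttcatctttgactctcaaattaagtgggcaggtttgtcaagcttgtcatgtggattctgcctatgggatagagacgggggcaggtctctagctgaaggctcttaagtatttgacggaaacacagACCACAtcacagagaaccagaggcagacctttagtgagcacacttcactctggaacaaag
Ifng (chr10:118440796-118441095, plus strand): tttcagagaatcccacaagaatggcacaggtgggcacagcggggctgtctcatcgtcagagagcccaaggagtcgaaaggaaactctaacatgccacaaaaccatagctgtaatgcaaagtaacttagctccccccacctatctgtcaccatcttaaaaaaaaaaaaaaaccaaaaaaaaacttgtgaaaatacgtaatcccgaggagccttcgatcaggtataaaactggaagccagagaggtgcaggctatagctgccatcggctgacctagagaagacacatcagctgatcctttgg
The Xcl1 window held 1 Runx match, 227 bases before the start, and 1 T-box match, 188 bases before it. The Cxcr6 window held 1 Runx match, 10 bases before the start, and the Ifng window held neither. Of all 32851 start regions in the table, 16.8% held the Runx motif and 3.98% the T-box motif. A match is a description of the letters and not a binding site.

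A further small set lay mostly outside CD8-, CD4- and NK-class cells. It was singled out after its counts were seen, from Il1r1, a gene named below for its genotype p. Il1r1 (chr1:40225080-40317257, the interleukin 1 receptor) was found in 13 members and Il23r (chr6:67422932-67491855, the interleukin 23 receptor) in 15, with both in 11 and at least 1 in 17, of which 15 were unclassed. All 5 members with Il17a, all 7 with Il17re, a receptor chain of the interleukin 17 family, and all 6 with the kinase Blk were among these 17. Zbtb16, a factor of innate-like T cells, was found in 11 of 17 against 4 of the other 173 members, Maf in 12 against 28, Rora in 14 against 63, Il18r1 in 16 against 51 and Cxcr6 in 12 against 52. Ccl5, Xcl1 and Ifng were each found in 1 of 17. A beta chain gene was found in 14, Trac in 6 and a Tcrg-C gene in 8, and Trdc in 1, so the transcripts do not place the set in the alpha beta or gamma delta lineage. The set counted 1, 3 and 0 cells in WT 1, WT 2 and WT 3 (2.78%, 13.0% and 0%, where 0 of 27 allows up to 11.1%) and 10, 1 and 2 cells in ArcSwe 1, ArcSwe 2 and ArcSwe 3 (19.2%, 5.88% and 5.71%). ArcSwe 1 supplied 10 of the 17, and the 2 remaining ArcSwe mice lay below WT 2. The cell of WT 2 with Il1r1 was also the only Il1r1 cell of a WT mouse, and it was 1 of the 5 members without T and NK transcripts. Il1r1 alone was also found in 18.1% of endothelial cells at a similar depth, whereas Il17a was found in none of the endothelial or microglial cells.

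**Figure D3:**
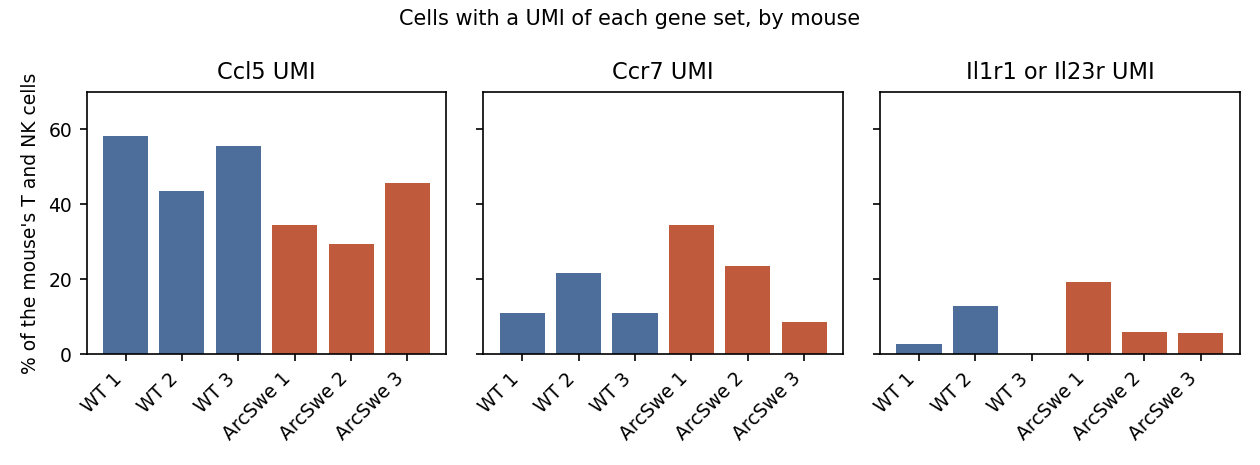
Percentage of each mouse's T and NK cells with a UMI of Ccl5, of Ccr7, and of Il1r1 or Il23r. The bars of the 2 genotypes overlap in all 3 panels, and ArcSwe 1 (19.2%) and WT 2 (13.0%) are highest for Il1r1 or Il23r.

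Further gene groups were described over all members. Of the trafficking and adhesion list, 12 of 13 genes were found in at least 10% of the members, led by Selplg, the ligand of P-selectin that 82.5% of microglia also held, in 136 cells, Itgb1 in 94, Itga4 in 87, Itgal in 80 and Itgb7 in 76, while the chemokine receptor Cxcr3 was found in 47. S1pr5, of circulating NK cells, was found in 1. Tox, a factor of chronically stimulated T cells, was found in 123, the early activation marker Cd69 in 108 and Rgs1 in 98, while Pdcd1 was found in 35, Itgae in 9, 8 of them CD8-class, and Zfp683 in 2. Rgs1 was found in 16 of 18 NK-class, 39 of 71 CD8-class and 11 of 36 CD4-class cells. Itgae and Zfp683 mark resident CD8 cells of epithelia and other tissues. All 14 MHC class I presentation genes were in at least 10% of the members, with H2-K1 in 188, B2m in 186 and H2-Q7 in 164. H2-Q7 has near-identical neighbours between which reads can be split, so its counts are uncertain. H2-Q7 was found in 48.4% of members after thinning to 1000 UMIs, against 10.6% of endothelial cells, 6.87% of microglia and, unthinned, 86.3% against 34.7% and 16.7%. The interferon response list, with 12 of 19 genes in at least 10% of the members, summed to 1548, 1071 and 880 CPM in WT and 1177, 2081 and 1359 CPM in ArcSwe, against means of 1478 CPM in endothelial cells and 761 CPM in microglia. Ifi27l2a was its most abundant gene, in 74 members (38.9%, against 11.2% of endothelial cells), and Ifi203 was found in 94 (49.5% against 16.2%). Isg15 was found in 22 and Ifit1 in 8 members (11.6% and 4.21%, against 40.4% and 25.8% of endothelial cells), so the genes of the list differed in direction. Immediate early genes, which enzymatic dissociation is known to raise, were abundant, with Junb in 185, Jun in 149 and Fos in 148. Mbp was found in 75 members (39.5%, against 0.485% of endothelial cells and 8.53% of microglia). The Mbp locus is known to give further transcripts in lymphocytes. Cycling was rare: 7 members had at least 2 of Mki67, Top2a, Stmn1, Birc5, Ccnb2 and Cdk1, at 2, 0 and 2 in WT and 1, 0 and 2 in ArcSwe. The 5 members without T and NK transcripts were not set apart in this count. Gata3 together with Il1rl1, a pair of type 2 innate lymphoid cells, was found in 3.

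To compare genotypes gene by gene, UMIs were summed over the members of each mouse, which gave 162192, 103643 and 128464 UMIs in WT and 204840, 81698 and 145683 in ArcSwe. Of 2289 genes with enough counts, 0 passed an adjusted p under 0.05 in edgeR's quasi-likelihood test (0%), with a smallest Benjamini-Hochberg adjusted p of 0.317, and DESeq2 also called 0. An unadjusted p under 0.05 was reached by 72 genes (3.15%) in edgeR and by 30 in DESeq2. The 3 mice of each genotype did not overlap in 211 genes (9.22%). Without the 5 members lacking T and NK transcripts, 1805 genes were tested and 0 were called, with a smallest adjusted p of 0.0696. In such sums, fewer cells of a class and less RNA per cell cannot be told apart, and replicates are separate mice.

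The 10 genes with the smallest unadjusted p are named as a description, since none passed the adjustment. Il1r1 had 0, 3 and 0 UMIs in WT and 26, 11 and 12 in ArcSwe, which is 0, 57.1 and 0 against 261, 261 and 170 CPM after TMM scaling (trimmed mean of M-values, a correction for composition). All ArcSwe mice lay above all WT mice, with a log2 fold change of 3.74 ± 0.78 (SE; edgeR adjusted p = 0.317). The ratio of summed UMIs was 14.9 with a 95% counting interval of 4.81 to 74.7. This interval treats UMIs as independent, and it covers neither the spread between mice nor that between cells. The edgeR and DESeq2 adjusted p ran from 3.16e-05 without a filter on low counts to 1.00 over 14 alternatives. The UMIs came from 9 cells of ArcSwe 1, 1 of ArcSwe 2, 2 of ArcSwe 3 and 1 of WT 2, so that a few cells carried the whole value. Without the 5 members lacking T and NK transcripts the UMIs were 0, 0 and 0 in WT and 26, 11 and 12 in ArcSwe, with a log2 fold change of 6.96 and an edgeR adjusted p of 0.0696. Against a group at 0 the fitted fold change depends on the prior count, and it ran from 3.01 to 7.05 over the 14 alternatives, the highest without WT 2.

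Taf4b, a subunit of the general transcription factor TFIID, had 7, 2 and 2 UMIs in WT and 22, 11 and 24 in ArcSwe, a log2 fold change of 2.27 ± 0.46 (SE; edgeR adjusted p = 0.317, 0.00337 to 1.00 over 14 alternatives). Without the 5 members the log2 fold change was 2.25, and over the alternatives it ran from 2.05 to 2.87, the highest without WT 1. It was detected in 3, 2 and 2 cells of the WT mice and in 13, 6 and 10 cells of the ArcSwe mice, and in 13 CD8-class, 6 CD4-class, 5 NK-class, 2 gamma delta-class and 10 unclassed cells. It was thus spread over more cells than Il1r1. Endothelial cells and microglia held it in 11.0% and 6.22%.

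Rora, a nuclear receptor of helper and innate lymphocytes, had 484, 495 and 269 CPM in WT and 953, 642 and 1159 CPM in ArcSwe (log2 fold change 1.15 ± 0.32, and 1.10 without the 5 members). When cells with any UMI of Cldn5, Flt1, C1qa or Csf1r were left out, the log2 fold change of Rora was 0.25, and Rora was found in 45.9% of endothelial cells. Igf1r, the insulin-like growth factor receptor, had 142, 210 and 252 CPM in WT and 491, 285 and 735 CPM in ArcSwe (log2 fold change 1.38 ± 0.39, and 1.83 without the 5 members). Both were frequent in the cells with Il1r1 or Il23r, which held 115 of 287 Rora UMIs and 68 of 151 Igf1r UMIs, and Igf1r was also found in 93.8% of endothelial cells. Igf1r, Il1r1 and Taf4b had too few counts to be tested without the cells that held any UMI of Cldn5, Flt1, C1qa or Csf1r. Itgb1, an integrin chain used in crossing vessel walls, had 1239, 609.5 and 688 CPM in WT against lower values of 251, 380 and 424 CPM in ArcSwe (log2 fold change -1.31 ± 0.35, and -1.41 without the 5 members). It was found in 25 of 36, 11 of 23 and 18 of 27 cells of the WT mice and in 16 of 52, 7 of 17 and 17 of 35 cells of the ArcSwe mice, but also in 72.4% of endothelial cells and 38.7% of microglia. Over the alternatives its log2 fold change ran from -2.23 to -0.90. Arl5b, Spred2, an inhibitor of Ras signalling, and Elp4, a subunit of the Elongator complex, had log2 fold changes of 1.38, 1.79 and 1.70, and Filip1l and Baz1b, a chromatin remodelling subunit, of -1.75 and -1.38. Without the 5 members the value of Arl5b was 1.35, and Spred2, Elp4, Filip1l and Baz1b had too few counts to be tested. These 8 genes all had an edgeR adjusted p of 0.999. The genotypes did not overlap in any of the 10 named genes, Il1r1 and Taf4b included, which the choice by p makes likely.

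**Figure D4:**
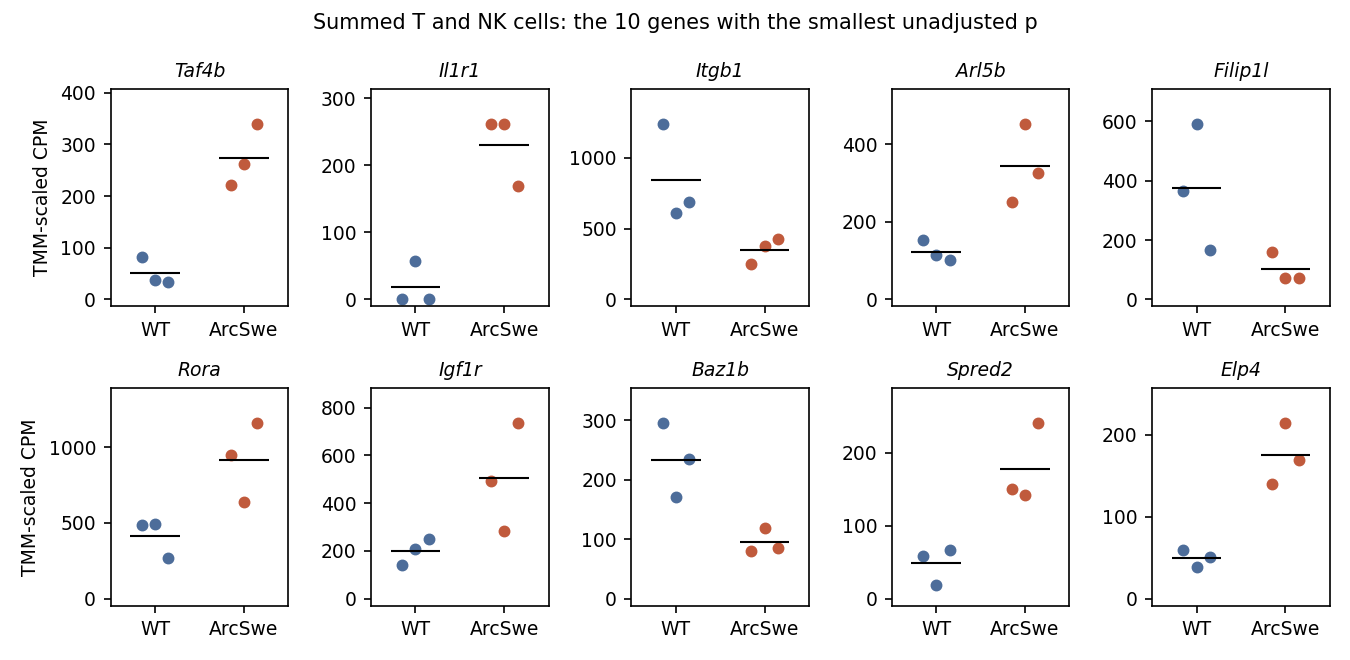
TMM-scaled CPM of the summed T and NK cells in each of 3 WT and 3 ArcSwe mice (points) with the mean (line), for the 10 genes with the smallest unadjusted p. The genotypes do not overlap in these genes, which the choice by p makes likely, and none passed the adjusted p of 0.05.

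No gene of any list was called, so the lists are described by their medians beside the median of all 2289 genes (-0.02). An unadjusted p under 0.05 in edgeR, reached by 3.15% of all tested genes, was reached by 2 genes of the NK list. It was also reached by 1 gene each of the trafficking (Itgb1, lower in ArcSwe), interferon response (Bst2), immediate early (Fosb) and regulatory T lists (Ctla4), the last 3 higher. Of the NK list, 7 of 8 tested genes were lower and 1 was higher in ArcSwe, with a median log2 difference of -0.56 (-0.64 without the 5 members, with 6 of 6 lower) and 2 genes at an unadjusted p under 0.05. Klrd1 had 460, 495 and 772 CPM in WT and 381, 428 and 254 CPM in ArcSwe, with no overlap (log2 fold change -0.71 ± 0.33, edgeR adjusted p = 0.999), and -0.77 without the 5 members. Fcer1g had 743, 648 and 974 CPM in WT and 221, 238 and 735 CPM in ArcSwe, where ArcSwe 3 overlapped with WT (log2 fold change -0.97 ± 0.41, edgeR adjusted p = 0.999). Without the 5 members Fcer1g did not overlap, and its log2 fold change was -1.08. Klrk1, the activating receptor NKG2D, was the gene that was not lower, at 0.03. The NK list kept a median below 0 in all 15 alternatives computed on filtered counts, from -0.79 to -0.31, but without ArcSwe 1 only 5 of 9 tested genes were lower and 4 were higher. The NK-class share of cells, given above, was also lower on average in ArcSwe, with an exact permutation p of 0.3. Microglia, which also express Fcer1g and Tyrobp, have a marker list of their own that summed to 549, 521 and 1253 CPM in WT and 703, 416 and 1524 CPM in ArcSwe (all 8 genes detected, Cst3 the most abundant), and their part in the NK values was not tested.

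Of the naive and recirculating list, 7 of 7 tested genes were higher in ArcSwe, with a median of 0.37 (0.35 without the 5 members, with 6 of 7 higher) and 0 at an unadjusted p under 0.05. Lef1 had 94.4, 609.5 and 621 CPM in WT and 1203, 1283 and 382 CPM in ArcSwe, so that ArcSwe 3 lay within the WT range (log2 fold change 1.16 ± 0.55, edgeR adjusted p = 0.999, and 1.05 without the 5 members). Klf2, which drives S1pr1, had 2041, 2571 and 1041 CPM in WT and 2999, 2851 and 1936 CPM in ArcSwe (log2 fold change 0.46, and 0.53 without the 5 members). The median of the list stayed above 0 in the same 15 alternatives, from 0.13 to 0.89, but 5 of 7 tested genes were higher without WT 1 or without ArcSwe 1 and 2 of 4 in CD8-class cells alone. Endothelial cells also express Lef1, Klf2 and S1pr1, and the endothelial marker list summed to 647, 618 and 592 CPM in WT and 727, 575 and 851 CPM in ArcSwe (all 9 genes detected, Bsg the most abundant), and their part was not tested.

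The receptor and signalling list had a median of 0.07 with 11 of 15 genes higher and a negative median in 1 alternative, and the trafficking list a median of -0.22 with 7 of 10 lower (0.05 and -0.27 without the 5 members). Cytotoxic effector and cytokine genes had a median of -0.02 (5 of 9 lower), which was -0.43 without the 5 members (5 of 8 lower), -0.79 when cells with any UMI of Cldn5, Flt1, C1qa or Csf1r were left out (5 of 6 lower) and 0.29 in CD8-class cells alone (3 of 5 higher). The remaining lists changed sign in at least 1 alternative: tissue residence had 0.19 (5 of 7 higher), interferon response 0.09 (4 of 6 higher), MHC class I presentation -0.06 (9 of 14 lower) and immediate early genes 0.06 (8 of 14 higher), and without the 5 members these were 0.14, 0.10, -0.08 and 0.05. Without the filter on low counts, the interferon response list had 14 of 19 genes higher and 5 lower. Its median was then 0.47, beside 0.0067 for all genes. Few genes of the smaller lists could be tested: 2 CD8 genes had a median of 0.16, Cd40lg and Icos of the help list 0.92, 3 regulatory T genes 0.25, 2 proliferation genes -0.87, Gata3 of the gamma delta and innate lymphoid list -0.43 and 1 clock gene 0.13, and without the 5 members these were 0.10, 0.87, 0.21, not tested, -0.46 and 0.10. The number of tested genes differed between alternatives on filtered counts. There the medians ran from -0.22 to 0.61 for CD8, -0.12 to 1.35 for regulatory T and -0.27 to 0.45 for the clock gene. Proliferation ran from -4.51 (4 genes, without ArcSwe 3) to 0.01 (1 gene, without WT 1). The gamma delta and innate lymphoid list ran from -0.88 to 0.28. Its values above 0 came from 2 genes, 1 higher and 1 lower, and were below 0 wherever Gata3 alone was tested. Each of these lists changed sign, and the help list ran from 0.35 to 1.14. Without the filter on low counts, the clock list had 9 of 13 genes higher and 4 lower, with a median of 0.69.

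Ccl5 had 9048, 5295 and 4970 CPM in WT and 2768, 6867 and 4211 CPM in ArcSwe, in overlapping ranges (log2 fold change -0.49 ± 0.33, edgeR adjusted p = 0.999, and -0.52 without the 5 members). Cd8b1 had 224, 609.5 and 756 CPM in WT and 592, 594 and 396 CPM in ArcSwe (log2 fold change 0.02 ± 0.39, and -0.05 without the 5 members). The receptor gene Cd3g had 1463, 1181 and 1478 CPM in WT and 1514, 1830 and 1583 CPM in ArcSwe, with a log2 fold change of 0.25 ± 0.24 (edgeR adjusted p = 0.999). The genotypes did not overlap in Cd3g, but they did without the 5 members (log2 fold change 0.21).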

How the data were processed

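Microvessel cells of 3 WT and 3 ArcSwe mice were analysed, 1 droplet library per mouse. The authors deposited a matrix of unnormalised UMI counts for each mouse, for which the submitters' processing notes name Cell Ranger 7.0.0 and the mm10 build. Whether intronic reads were counted is not given in the sources used here. Cells with 500 to 4500 genes and under 10% mitochondrial UMIs were kept, and T and NK cells were selected by UMI thresholds with no other doublet removal. Members, gene lists and tests were chosen with earlier results of these data known. Reference endothelial cells and microglia held at least 6 UMIs of Cldn5 and Flt1 or of C1qa and Csf1r, reference B cells at least 3 of Cd79a and Ms4a1, and none held a UMI of Cd3e, Cd3d, Trbc2 or Nkg7.

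Shares were compared over mice with two-sided exact permutation tests. UMIs were summed per mouse and tested with edgeR 4.0.16 (quasi-likelihood, TMM, filterByExpr, adjusted p threshold 0.05) in R 4.3.3, tested on simulated data. Before testing, 2903 of 32287 genes were left out (pseudogenes, Rik transcripts, and genes of mitochondria and of ribosomal proteins). Alternatives were DESeq2 1.42.0, RLE scaling, other thresholds and filters, thinning to 1000 UMIs, a replicate block, and leaving out each mouse. Leaving out the 5 members without T and NK transcripts, and those with shared barcodes, was chosen after seeing the data. Replicate numbers were not shown to pair the mice (correlations of deviations -0.035, 0.0079 and 0.073). Sums over so few cells are noisy, so these values cannot exclude a pairing.

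Genes were named as the 10 smallest p of the genotype test, the 20 largest folds over other filtered cells among genes in at least 25% of members, and list members with a UMI. Genes beside Il1r1 and Il23r and in the Ccl5 and Ccr7 division were chosen after their values were seen. A CD8-class against CD4-class test was not made, since 1 mouse and not 3 had 10 cells of both. Gene positions came from GENCODE M21 (GRCm38). Python 3.11.15, numpy 2.4.6, scipy 1.17.1 and pandas 2.3.3 were used. Some genes of the lists are not reported here and were left out of the counts and medians of their lists.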

Additional observations from a re-analysis of the deposited data

How the results depend on the processing

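The counts of 17 to 52 T and NK cells per mouse limit every comparison, and 3 against 3 mice cannot reach p = 0.05 in an exact test. The difference in T and NK share (ArcSwe minus WT, percentage points) was -0.0156 when cells with any UMI of Cldn5, Flt1, C1qa or Csf1r were left out (p = 0.9, exact permutation test), 0.787 when the share was taken over cells with at most 3 UMIs of Cldn5 and Flt1 (p = 0.4, exact permutation test), and 0.00736 to 0.234 when each mouse was left out in turn. The CD8-class difference ran from -3.78 to 16.1 when each mouse was left out, being -3.78 without WT 1 and -0.463 without WT 2. The CD4-class difference ran from -5.78 to 4.82, being 4.82 without WT 1 and 4.64 without ArcSwe 3, and it was 1.17 and 0.668 when at least 2 or 4 UMIs of the selection genes were required. The NK-class difference stayed below 0, from -5.41 to -2.21 without each mouse, and was -6.21 and -6.18 at 2 or 4 UMIs (unadjusted exact permutation p = 0.1, the smallest possible). The causes were not tested. Genes called by edgeR numbered 0 when each mouse was left out in turn. Without a filter on low counts they numbered 35 of 13214 (23 higher, 12 lower, Il1r1, Taf4b and Filip1l among them). Without cells that held any UMI of Cldn5, Flt1, C1qa or Csf1r, 1 of 910 was called (Ccl4, lower in ArcSwe, edgeR adjusted p = 0.0238). That setting kept 10 of the 35 members of ArcSwe 3. Over all members Ccl4 had a log2 fold change of -0.38 (edgeR adjusted p = 0.999), and ArcSwe 3 was the highest mouse at 6614 CPM. With a replicate block, whose numbers were not shown to pair the mice, the share differences were the same (sign-flip exact permutation p = 0.75 for the T and NK share of 0.0971, where 0.25 is the smallest), and edgeR called 0 genes (79 at an unadjusted p under 0.05). The alternatives of the CD8-class against CD4-class test were not run, since that test was not made.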
